A study of Mus musculus with 9 samples.

Results

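Transcripts of 9 genes of extracellular and cell-surface proteolysis were followed in lung neutrophils: the matrix metalloproteinases (MMPs) *Mmp8*, *Mmp9*, *Mmp14*, *Mmp19* and *Mmp25*, the membrane-anchored disintegrin metalloproteinases *Adam8* and *Adam17*, and the tissue inhibitors of metalloproteinases *Timp1* and *Timp2*. The genes were chosen by name and function, with earlier results of these data known. All 9 were found among 22064 genes listed, 18325 genes with values and 14108 genes tested. The 9 bulk RNA-seq libraries came from CD45+ cells sorted on Ly6G protein from the lungs of female BALB/c mice, with 3 libraries in each group. Ly6Ghigh and Ly6Glow neutrophils came from lungs at the macrometastatic (MACRO) stage, after 4T1-LM3 cells, a lung-tropic derivative of the 4T1 mouse mammary carcinoma line obtained by selection in mice, had been injected into the mammary fat pad. The other group was Ly6Ghigh neutrophils from normal lung (NL), for which the labels name no injection of tumor cells. The ages of the mice were not given in the labels, and no Ly6Glow cells from normal lung were among the libraries. The labels call the replicates of a group separate biosamples without saying how many mice each holds, so that p-values measure the spread between these libraries.

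MMPs are zinc-dependent enzymes that cut collagens and other matrix proteins and are made as inactive proenzymes. Neutrophils store Mmp8 and Mmp9 protein in granules that are filled during maturation in the bone marrow and emptied after recruitment, so a transcript level does not give the amount of stored enzyme. Adam8 and Adam17 cut proteins from the cell surface, and TIMPs bind the active site of MMPs. In tumor biology the family is known for matrix remodelling, release of growth factors and shedding of cytokine receptors and of L-selectin.

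Promoters are shown for *Mmp8* and *Mmp25*, both higher in each macrometastatic group than in normal lung, and for *Adam8*, whose transcript had another pattern. Each runs from 250 bases before to 50 bases after the RefSeq start site on build GRCm38 (mm10), 5′ to 3′ in the direction of transcription. Capitals mark matches on either strand to 3 short motifs, TGANTCA (AP-1), TTGCNNAA (C/EBP) and GAGGAAG (PU.1), and no match overlapped another.
Mmp8: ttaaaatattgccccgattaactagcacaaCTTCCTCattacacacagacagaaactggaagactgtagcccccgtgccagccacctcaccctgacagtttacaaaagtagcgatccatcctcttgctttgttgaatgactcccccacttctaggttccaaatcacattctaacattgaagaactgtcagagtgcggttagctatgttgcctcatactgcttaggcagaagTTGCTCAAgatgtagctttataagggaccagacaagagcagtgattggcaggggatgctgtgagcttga
Mmp25: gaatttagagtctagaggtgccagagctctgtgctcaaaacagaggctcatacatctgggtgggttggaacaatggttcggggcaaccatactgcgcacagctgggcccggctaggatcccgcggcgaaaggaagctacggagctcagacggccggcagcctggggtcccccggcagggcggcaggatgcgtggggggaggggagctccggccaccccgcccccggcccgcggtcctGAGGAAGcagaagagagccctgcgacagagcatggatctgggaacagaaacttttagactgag
Adam8: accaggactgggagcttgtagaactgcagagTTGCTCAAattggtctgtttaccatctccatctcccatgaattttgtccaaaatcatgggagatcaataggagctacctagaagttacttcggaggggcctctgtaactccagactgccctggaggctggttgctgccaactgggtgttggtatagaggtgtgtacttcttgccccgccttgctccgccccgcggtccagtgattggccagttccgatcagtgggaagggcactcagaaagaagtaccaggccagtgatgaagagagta
The *Mmp8* window, at chr9:7558179-7558478 on the plus strand, held 1 C/EBP match starting at -19 from the start site and 1 PU.1 match starting at -220. The *Mmp25* window, at chr17:23645220-23645519 on the minus strand, held 1 PU.1 match starting at -13. The *Adam8* window, at chr7:139992513-139992812 on the minus strand and inside the annotated bounds of the gene, held 1 C/EBP match starting at -219. Of 32851 RefSeq promoter windows of the same length, 7.81% held the AP-1 letters, 10.8% the C/EBP letters and 13.6% the PU.1 letters on either strand. None of the 3 motifs was found in these windows of *Mmp14*, *Adam17*, *Timp1* or *Timp2*. These matches are descriptions of the letters and not evidence of binding. *Mmp9* and *Mmp19* had no entry.

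Each library held 15267177 to 17841807 estimated counts. Levels are given as CPM, which are counts per 1e6 after scaling by edgeR's TMM factors, and as FPKM, which divides by transcript length and is the scale used here to set one gene against another. The TMM factors were 0.945 to 0.950 in the macrometastatic Ly6Ghigh, 0.803 to 0.807 in the Ly6Glow and 1.30 to 1.32 in the NL libraries. FPKM carries no such factor. For 8 genes, all but *Timp1*, whose counts were too low for the check, the ratio of count to FPKM, relative to the library's median gene, moved between groups by at most 0.0118 on the log2 scale, so that CPM and FPKM folds differ by library scaling and not by transcript length. Summed over 12 neutrophil markers, the level was 69315 to 71252 CPM in macrometastatic Ly6Ghigh, 77242 to 79139 CPM in Ly6Glow and 21835 to 22039 CPM in NL libraries, and none of the 12 was at 0 in any group. *S100a8* and *S100a9*, alarmin genes of neutrophils, had means of 23571 and 31667 CPM in macrometastatic Ly6Ghigh, 22037 and 30616 CPM in Ly6Glow and 4478 and 7563 CPM in NL libraries, and *Csf3r*, the G-CSF receptor gene, had 3745, 6928 and 2135 CPM. *Ly6g*, whose protein defined the sort, had 374 ± 10.8 CPM (SD, n = 3) in macrometastatic Ly6Ghigh and 394 ± 9.32 CPM in Ly6Glow libraries, so that its transcript was not lower in the libraries labelled Ly6Glow on this scale (FPKM 409 and 366). In NL libraries it was 119 ± 1.40 CPM.

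Calls required a Benjamini-Hochberg adjusted p no higher than 0.05 in edgeR's quasi-likelihood test, with a log2 fold change beyond 0.58 in either direction, that is 1.49-fold. Between Ly6Glow and Ly6Ghigh neutrophils of macrometastatic lung, 4 of the 9 genes were called higher in Ly6Glow cells (*Mmp8*, *Adam8*, *Adam17* and *Timp2*), against 9.29% of all tested genes. DESeq2 called 4 higher, and 1508 of all 14108 genes. Limma on FPKM called 1 higher, *Adam8*, and 317 of the 18317 genes it tested. None of the 9 was called lower by edgeR, DESeq2 or limma on FPKM, against 15.9% of all tested genes in edgeR. In edgeR *Mmp14* (adjusted p = 0.035) and *Mmp25* (adjusted p = 0.00132) were lower, with folds under the threshold. For 8 of the 9 the libraries of these groups did not overlap, against 62.1% of all genes. In macrometastatic Ly6Ghigh over NL neutrophils, 3 genes were called higher (*Mmp8*, *Mmp9* and *Mmp25*; 26.3% of all genes) and 3 lower (*Mmp14*, *Timp1* and *Timp2*; 36.6% of all genes). In Ly6Glow over NL neutrophils, 4 were called higher (*Mmp8*, *Mmp9*, *Mmp25* and *Adam17*; 28.7% of all genes) and 2 lower (*Mmp14* and *Timp1*; 40.8% of all genes). Against NL, limma on FPKM called 3 higher and 5 lower in macrometastatic Ly6Ghigh cells, and 3 higher and 4 lower in Ly6Glow cells. It called 6598 and 7601 of 18317 genes in these comparisons. In both comparisons with normal lung all 9 genes had groups that did not overlap, as did 85.2% and 86.8% of all genes, so that absence of overlap is common there. The median log2 fold change of the 9 genes was 0.48, -0.45 and 0.46 in the 3 comparisons in this order, beside -0.04, -0.09 and -0.16 over all tested genes. Both comparisons with normal lung share the NL libraries, and macrometastatic Ly6Ghigh libraries also enter the first comparison.

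**Figure D1:**
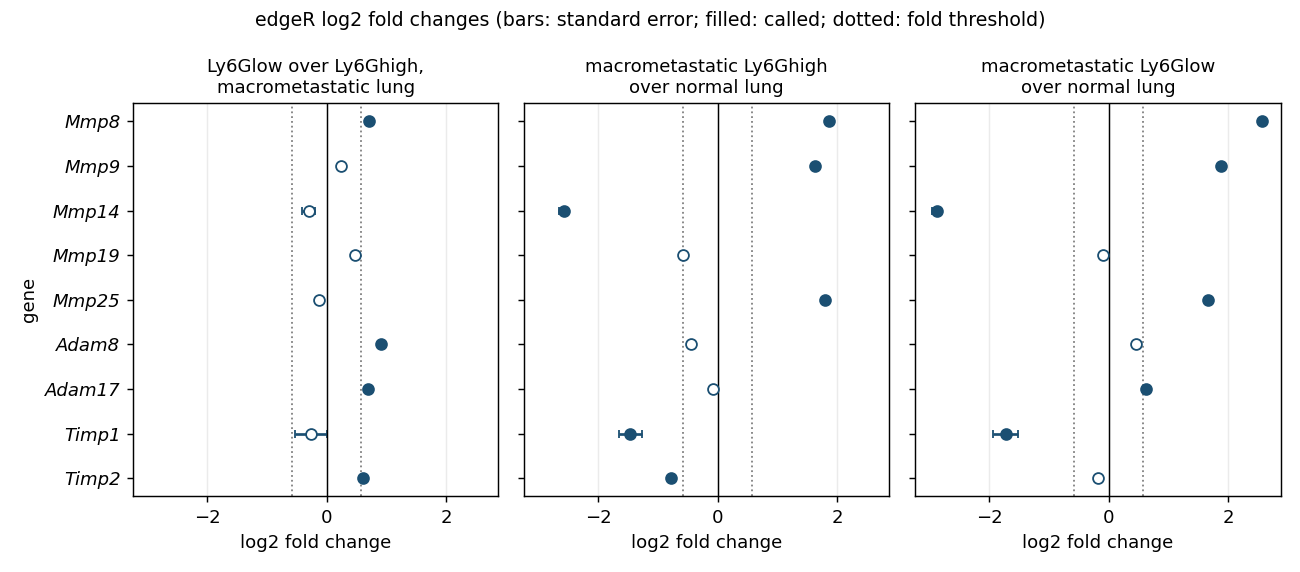
Fitted log2 fold changes of the 9 genes (rows) in the 3 comparisons (panels), with standard errors as bars. Filled points were called, open points were not, and dotted lines mark a log2 fold change of 0.58 in either direction. *Mmp8* lies at 0.70, 1.86 and 2.56 from left to right and *Mmp14* at -0.30, -2.57 and -2.87; on FPKM the sign turns for *Mmp9* in the left panel and for *Adam8* and *Adam17* in the right panel.

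*Mmp8* (chr9:7558429-7568486), the neutrophil collagenase, had the largest rise of the 9 genes over normal lung in both macrometastatic groups. Its level was 600, 630 and 610 CPM in the NL libraries, 2256, 2212 and 2210 CPM in the macrometastatic Ly6Ghigh libraries and 3627, 3568 and 3669 CPM in the Ly6Glow libraries. All 3 groups were apart, with the Ly6Glow libraries highest. The level was 3.63-fold that of NL in macrometastatic Ly6Ghigh cells (log2 fold change 1.86, SE 0.029, adjusted p = 7.56e-23) and 5.90-fold in Ly6Glow cells (2.56, SE 0.030, adjusted p = 6.03e-25). It was 1.63-fold higher in Ly6Glow than in macrometastatic Ly6Ghigh cells (0.70, SE 0.028, adjusted p = 4.1e-15). On FPKM this last difference was 0.47 on the log2 scale, in the same direction and under the fold threshold.

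*Mmp9* (chr2:164940326-164955850) encodes gelatinase B, the gelatinase of neutrophil tertiary granules. It had 1132, 1002 and 1073 CPM in NL, 3304, 3369 and 3273 CPM in macrometastatic Ly6Ghigh and 3933, 3933 and 3840 CPM in Ly6Glow libraries. The NL libraries were far below the other 6. The level was 3.10-fold that of NL in macrometastatic Ly6Ghigh cells (log2 fold change 1.63, SE 0.035, adjusted p = 1.22e-20) and 3.65-fold in Ly6Glow cells (1.87, SE 0.035, adjusted p = 1.29e-21). Between the macrometastatic groups the fold was 1.18 on TMM-scaled counts (0.23, SE 0.034, adjusted p = 4.43e-06), below the fold threshold, and on FPKM the sign turned, with a log2 difference of -0.0013. The FPKM values themselves were 999, 1023 and 995 in Ly6Ghigh and 1015, 1010 and 990 in Ly6Glow libraries, which overlapped. A difference in *Mmp9* between Ly6Glow and Ly6Ghigh cells was therefore not shown independently of scaling.

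*Mmp25* (chr17:23628315-23645269), which encodes a membrane-type MMP held by a lipid anchor and abundant in leukocytes, had 178, 173 and 177 CPM in NL, 605, 608 and 609 CPM in macrometastatic Ly6Ghigh and 565, 545 and 560 CPM in Ly6Glow libraries. The Ly6Ghigh libraries were highest and the NL libraries lowest. The level was 3.45-fold that of NL in macrometastatic Ly6Ghigh cells (log2 fold change 1.79, SE 0.032, adjusted p = 5.59e-22) and 3.16-fold in Ly6Glow cells (1.66, SE 0.032, adjusted p = 1.44e-21). Ly6Glow cells had slightly less than Ly6Ghigh cells of macrometastatic lung (-0.13, SE 0.030, adjusted p = 0.00132), a difference under the fold threshold. *Mmp8*, *Mmp9* and *Mmp25* thus shared the rise over normal lung and parted between the macrometastatic groups, where *Mmp8* was called and the other two were not.

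*Mmp14* (chr14:54431598-54442456) encodes the membrane-type MMP that activates pro-Mmp2 with Timp2 as its partner. It had 39.8, 38.8 and 38.0 CPM in NL, 6.77, 6.49 and 6.31 CPM in macrometastatic Ly6Ghigh and 5.69, 5.34 and 4.88 CPM in Ly6Glow libraries. Its level in NL libraries was 5.95-fold that of macrometastatic Ly6Ghigh cells (log2 fold change -2.57, SE 0.072, adjusted p = 9.63e-19) and 7.33-fold that of Ly6Glow cells (-2.87, SE 0.080, adjusted p = 7.38e-19). The macrometastatic groups lay closer, with -0.30 (SE 0.11, adjusted p = 0.035) for Ly6Glow over Ly6Ghigh cells, which was under the fold threshold. Counts in the 6 macrometastatic libraries were 64.4 to 110.2.

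*Mmp19* (chr10:128790910-128800827), a secreted MMP that cuts basement membrane proteins, had 254, 262 and 255 CPM in NL, 174, 171 and 173 CPM in macrometastatic Ly6Ghigh and 243, 244 and 236 CPM in Ly6Glow libraries. The Ly6Ghigh libraries of macrometastatic lung were lowest and on this scale the other groups lay near each other. The difference of macrometastatic Ly6Ghigh from NL cells, -0.57 (SE 0.033, adjusted p = 3.93e-13), and that of Ly6Glow from Ly6Ghigh cells, 0.48 (SE 0.034, adjusted p = 7.06e-11), both stayed under the fold threshold. The first of these lies at the threshold and was called without NL replicate 1, at -0.59, and with upper-quartile scaling or on FPKM. Ly6Glow cells differed from NL by -0.10 (SE 0.033, adjusted p = 0.0105), and on FPKM by -0.78, which limma called lower. *Tmem198b* overlaps the gene over 2739 bases and had 217 to 323 counts a library, against 2799 to 5747 for *Mmp19*.

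*Adam8* (chr7:139978932-139995207), a leukocyte protease that releases adhesion molecules, had the largest difference of the 9 genes between the macrometastatic groups. It had 1573, 1579 and 1575 CPM in Ly6Ghigh, 2958, 2984 and 2898 CPM in Ly6Glow and 2230, 2035 and 2175 CPM in NL libraries. The NL libraries lay between the macrometastatic groups. Ly6Glow cells had 1.87-fold the level of Ly6Ghigh cells (log2 fold change 0.90, SE 0.032, adjusted p = 5.26e-16), and this call was also made on FPKM, where the difference was 0.66. Macrometastatic Ly6Ghigh cells had less than NL cells (-0.45, SE 0.031, adjusted p = 1.39e-11), a difference under the fold threshold on counts scaled by TMM and past it on FPKM (-0.91), where limma called it lower. Ly6Glow over NL was 0.46 (SE 0.031, adjusted p = 7.83e-12), also under the threshold, and on FPKM the sign turned to -0.25, so that of the comparisons with NL the sign was common to both scales in macrometastatic Ly6Ghigh cells only.

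*Adam17* (chr12:21323509-21373632), the sheddase of pro-tumor necrosis factor and of L-selectin, had 239, 238 and 242 CPM in macrometastatic Ly6Ghigh, 391, 382 and 388 CPM in Ly6Glow and 249, 256 and 252 CPM in NL libraries. On this scale the Ly6Glow libraries stood above the other 6. The level in Ly6Glow cells was 1.61-fold that of macrometastatic Ly6Ghigh cells (log2 fold change 0.69, SE 0.032, adjusted p = 4.38e-14) and 1.53-fold that of NL cells (0.62, SE 0.031, adjusted p = 3.29e-14). On FPKM the first of these was 0.45, and the second turned sign to -0.08. Macrometastatic Ly6Ghigh and NL cells differed by -0.07 (SE 0.031, adjusted p = 0.034), and by -0.53 on FPKM.

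*Timp1* (chrX:20870166-20874737) encodes the inhibitor that binds pro-Mmp9 and was the member with the fewest counts, 14 to 40.0 in the macrometastatic libraries and 103 to 144 in NL libraries. It had 4.63, 5.29 and 6.49 CPM in NL, 2.46, 1.89 and 1.61 CPM in macrometastatic Ly6Ghigh and 1.79, 2.11 and 1.07 CPM in Ly6Glow libraries. NL libraries were highest and the macrometastatic groups overlapped. The NL level was 2.75-fold that of macrometastatic Ly6Ghigh cells (log2 fold change -1.46, SE 0.19, adjusted p = 3.89e-07) and 3.30-fold that of Ly6Glow cells (-1.72, SE 0.21, adjusted p = 1.49e-07). A difference between the macrometastatic groups was not detectable at this depth (-0.26, SE 0.27, adjusted p = 0.426). *Timp1* lies whole inside *Syn1*, which had 52.0 to 118.6 counts a library. The strand setting of the counting was not given in the sources used here, so reads of the 2 genes may not be told apart and the *Timp1* values are uncertain.

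*Timp2* (chr11:118301061-118355411), the inhibitor that also serves as partner of Mmp14 in activating pro-Mmp2, was far more abundant. It had 252, 236 and 253 CPM in NL, 146, 144 and 141 CPM in macrometastatic Ly6Ghigh and 219, 224 and 213 CPM in Ly6Glow libraries. Macrometastatic Ly6Ghigh libraries were lowest. The NL level was 1.72-fold that of macrometastatic Ly6Ghigh cells (log2 fold change -0.78, SE 0.038, adjusted p = 1.53e-14), and Ly6Glow cells had 1.52-fold the level of Ly6Ghigh cells (0.61, SE 0.039, adjusted p = 1.18e-11). The latter call lies close to the threshold and was not made on FPKM, where the difference was 0.36. Ly6Glow over NL was -0.17 (SE 0.037, adjusted p = 0.00017), not called, while on FPKM it was -0.86 and limma called it lower. *Cep295nl* lies within the bounds of *Timp2* and had 17.0 to 104 counts a library, against 2274 to 5612 for *Timp2*.

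Most sums of markers of other lung cells were higher in NL than in both macrometastatic groups, as *Mmp14* and *Timp1* were. For *Timp2* edgeR called this in macrometastatic Ly6Ghigh cells (-0.78) and not in Ly6Glow cells (-0.17). Summed over 10 fibroblast markers the level was 608 to 639 CPM in NL, 59.7 to 68.0 CPM in macrometastatic Ly6Ghigh and 63.7 to 68.6 CPM in Ly6Glow libraries. The sum of 8 endothelial markers was 1017 to 1092, 150 to 153 and 183 to 191 CPM in the same order, and that of 10 epithelial or tumor markers 1133 to 1270, 106 to 113 and 110 to 116 CPM. Every fibroblast and endothelial marker was above 0 in each group, and 1 epithelial marker was at 0 in all Ly6Glow libraries. The sum of 14 macrophage and monocyte markers was 1579 to 1656 CPM in NL, 851 to 861 CPM in macrometastatic Ly6Ghigh and 792 to 816 CPM in Ly6Glow libraries. Among these, *Mrc1*, the mannose receptor gene, had means of 428, 119 and 28.6 CPM, *C1qa* of complement 58.6, 13.0 and 9.19 CPM, and *Adgre1*, the F4/80 gene, 65.5, 54.6 and 43.9 CPM. Sums for alveolar macrophage markers were 1739 to 1762, 1553 to 1609 and 326 to 346 CPM, for eosinophil markers 191 to 197, 223 to 240 and 42.3 to 43.3 CPM, and for lymphocyte markers 86.9 to 87.6, 83.6 to 84.8 and 52.4 to 54.4 CPM. The largest part of each alveolar macrophage sum was *Chil3*, with means of 964, 1274 and 277 CPM, which is also among the granule genes below. Of the other genes in that sum, *Plet1* had means of 246, 63.6 and 3.32 CPM, while *Ear1* had 40.7, 45.8 and 1.19 CPM. The neutrophil sum, most of it *S100a8* and *S100a9*, was thus lower in NL than in both macrometastatic groups. Of the 12 genes, *Hcar2* went the other way, with means of 543 CPM in NL, 292 in macrometastatic Ly6Ghigh and 503 in Ly6Glow libraries. *Trem1* had 2232, 1412 and 2910 CPM in this order. The fibroblast, endothelial, epithelial, macrophage, alveolar macrophage and lymphocyte sums were higher in NL. The eosinophil sum of NL libraries lay between the macrometastatic groups. The eosinophil list shares *Siglecf*, *Ear1*, *Ear2* and *Ear6* with the alveolar macrophage list. Its unshared genes *Prg2*, *Epx*, *Ccr3* and *Il5ra* were lowest in NL, at 0.226, 0.0152, 1.09 and 2.00 CPM. The part of these markers in the results was not tested. In such bulk libraries fewer cells of a type and less RNA per cell cannot be told apart.

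On FPKM the 9 genes spanned from the most abundant transcripts of these cells to barely detected ones. In macrometastatic Ly6Ghigh cells the order was *Mmp9* (mean 1006 ± 15.4 SD, n = 3), *Mmp8* (878 ± 7.88), *Adam8* (473 ± 1.84), *Mmp25* (154 ± 1.06), *Adam17* (51.7 ± 0.36), *Mmp19* (49.3 ± 0.38), *Timp2* (38.1 ± 0.61), *Timp1* (2.29 ± 0.48) and *Mmp14* (1.65 ± 0.056). *Mmp9* ranked 55 and *Mmp8* ranked 67 among the 18325 genes with values there. Libraries of neighbours in this order did not overlap. In Ly6Glow cells *Mmp8* (1213 ± 19.5) stood above *Mmp9* (1005 ± 13.1) and *Adam8* (748 ± 10.9), followed by *Mmp25* (120 ± 2.48), *Adam17* (70.9 ± 1.02), *Mmp19* (58.2 ± 1.02) and *Timp2* (49.3 ± 1.22). Only *Timp1* (1.59 ± 0.50) and *Mmp14* (1.14 ± 0.080), the last of this order, had overlapping libraries. In NL cells the order was another: *Adam8* (892 ± 33.4, rank 46) came first, before *Mmp9* (447 ± 22.7), *Mmp8* (334 ± 11.6), *Mmp19* (101 ± 2.75), *Timp2* (90.3 ± 2.77), *Adam17* (75.1 ± 1.59), *Mmp25* (61.8 ± 0.66), *Mmp14* (13.6 ± 0.30) and *Timp1* (8.59 ± 1.59), with no overlap between neighbours. *Mmp25* thus held place 4 in both macrometastatic groups and place 7 in normal lung. Together the 9 genes took 0.782 to 0.791% of all counts in macrometastatic Ly6Ghigh, 0.952 to 0.963% in Ly6Glow and 0.613 to 0.641% in NL libraries, and *Mmp8* and *Mmp9* made up 66.6 to 67.0%, 63.1 to 63.6% and 34.8 to 35.2% of that share.

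**Figure D2:**
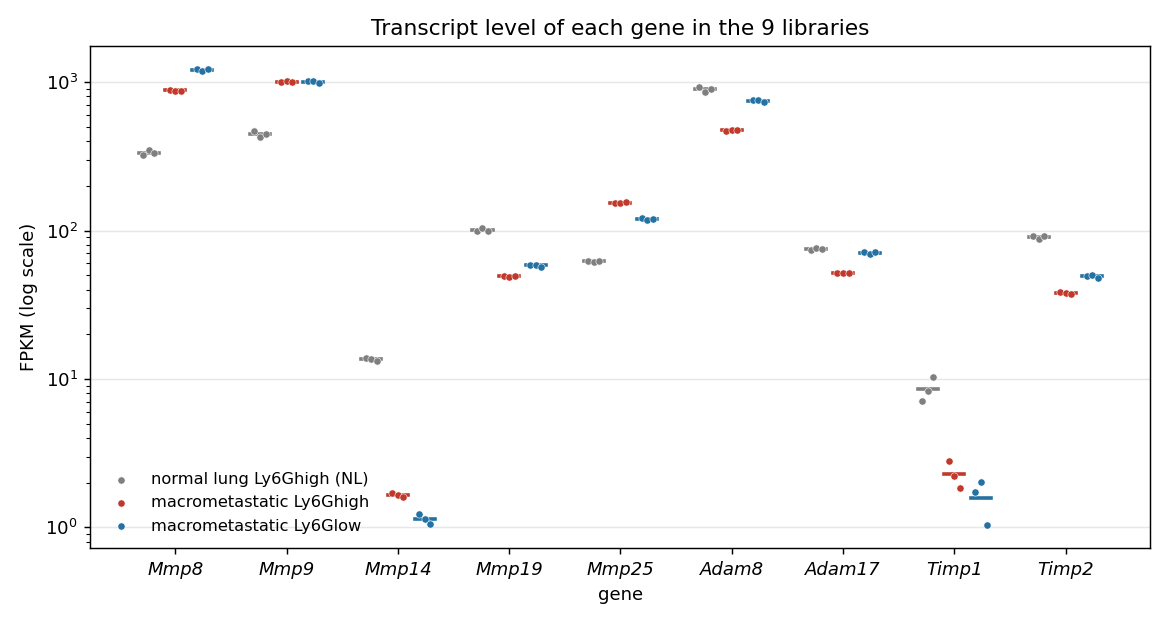
FPKM of the 9 genes (columns, log axis) in each of the 9 libraries, with points for libraries and a line for the mean of the 3 libraries of a group. *Mmp8*, *Mmp9* and *Mmp25* are lowest in the NL libraries, the 6 other genes are highest there on this scale, and *Mmp14* and *Timp1* lie under 3 FPKM in the macrometastatic libraries.

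Ratios of 2 transcripts within a library do not depend on library scaling. They compare transcripts and not active enzyme with inhibitor. The *Mmp9* to *Timp1* ratio of FPKM was 43.5 to 65.6 in NL, 357 to 538 in macrometastatic Ly6Ghigh and 502 to 961 in Ly6Glow libraries, where the macrometastatic groups overlapped. The *Mmp8* to *Timp1* ratio was 32.2 to 45.3, 317 to 472 and 593 to 1194, and here the 3 groups were apart. The uncertainty of the *Timp1* counts enters both. The *Mmp14* to *Timp2* ratio fell in the other direction, from 0.143 to 0.157 in NL through 0.0428 to 0.0443 in macrometastatic Ly6Ghigh to 0.0221 to 0.0247 in Ly6Glow libraries. The *Mmp8* to *Mmp9* ratio, chosen after its values were seen, was 0.690 to 0.817 in NL, 0.854 to 0.888 in macrometastatic Ly6Ghigh and 1.18 to 1.24 in Ly6Glow libraries, so that *Mmp8* passed *Mmp9* in all 3 Ly6Glow libraries and in none of the other 6. These ratios are descriptions and were not tested.

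**Figure D3:**
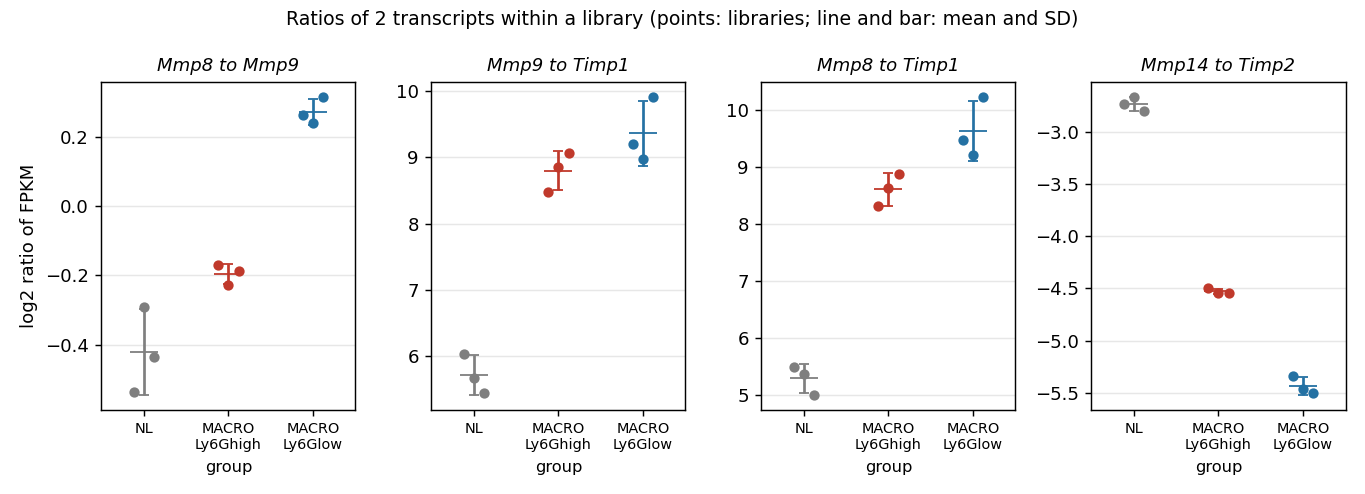
Log2 ratio of FPKM of 2 transcripts within a library (vertical axes, each panel with its own range) in the 3 groups (horizontal axis), with points for libraries and mean ± SD as line and bar. The *Mmp8* to *Mmp9* ratio lies above 0 in the Ly6Glow libraries alone, with a mean of 0.27, and the *Mmp14* to *Timp2* ratio has means of -2.74, -4.53 and -5.44 from NL to Ly6Glow.

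The genes fell into patterns across the 9 libraries. Likeness was measured as the root mean square difference of log2 CPM after centring each gene, over 9 libraries, among 7397 genes with a mean of at least 10 CPM. Among the members, *Mmp19* and *Timp2* were most alike (0.095), followed by *Mmp9* with *Mmp25* (0.15) and *Adam8* with *Adam17* (0.16), while *Mmp8* and *Mmp9* differed by 0.29. The nearest of all genes to *Mmp8* were the glycolytic enzyme gene *Tpi1* (0.042) and *Spata13* (0.053), and those to *Mmp9* were the lactate dehydrogenase gene *Ldha* (0.042) and *Bin3* (0.044). *Mmp25* was nearest to *Ap3s1* (0.039) and *Tnfaip8* (0.044), and *Mmp14* to *Serpina3g* (0.077) and *Clic4* (0.089). *Mmp19* was nearest to the chemokine gene *Ccl6* (0.034) and *Scarb2* (0.039), and *Timp2* to the urokinase receptor gene *Plaur* (0.050) and *Sertad1* (0.054). *Adam8* was nearest to the interleukin-10 receptor gene *Il10ra* (0.039) and *Dusp2* (0.042), and *Adam17* to the interferon receptor gene *Ifnar1* (0.024) and the hyaluronan receptor gene *Cd44* (0.035).

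The remaining family genes gave a setting for these changes. For comparison with the lists below, 26.3% of all tested genes were called higher and 36.6% lower in macrometastatic Ly6Ghigh over NL cells. These shares were 28.7% and 40.8% in Ly6Glow over NL, and 9.29% and 15.9% in Ly6Glow over Ly6Ghigh cells. Of 12 other MMP genes tested, 10 were called lower in macrometastatic Ly6Ghigh than in NL cells and 1 higher. The largest fall was *Mmp11*, a stromal MMP, at -4.17 (SE 0.34, adjusted p = 1.45e-10), and the rise was *Mmp27* at 1.69 (SE 0.26, adjusted p = 3.16e-06). Both are low, with means of 0.184 and 3.40 CPM for *Mmp11* and 1.87 and 0.573 CPM for *Mmp27*. In Ly6Glow over NL cells 9 were lower and 1 higher, with *Mmp11* at -3.43 (SE 0.32) and *Mmp27* at 2.01 (SE 0.26). In Ly6Glow over Ly6Ghigh cells of macrometastatic lung 1 was lower, *Mmp12*, the macrophage elastase, at -1.92 (SE 0.11, adjusted p = 2.28e-12) with means of 3.45 and 13.0 CPM. The 1 called higher was *Mmp17* at 1.39 (SE 0.57, adjusted p = 0.0436) with means of 0.544 and 0.202 CPM, named after its values were seen. DESeq2 and limma on FPKM called 0 of the 12 higher there, and on log2(FPKM + 1), which understates changes of low genes, *Mmp17* was at 0.07. The median log2 fold change of the 12 genes was -2.61 for macrometastatic Ly6Ghigh over NL cells, and of them only *Mmp27* was called higher there, as *Mmp8*, *Mmp9* and *Mmp25* were. Limma on FPKM did not make this call, with *Mmp27* at 0.43. The MMP genes that were lower than in NL cells moved with the fibroblast, endothelial and epithelial markers above. *Mmp12* was also lower in Ly6Glow than in Ly6Ghigh cells, as the sum of alveolar macrophage markers was, and the part of these markers was not tested.

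Of 10 other ADAM genes tested, 3 were called higher and 5 lower in macrometastatic Ly6Ghigh than in NL cells, and 4 higher and 5 lower in Ly6Glow than in NL cells. *Adam19* rose in both, at 1.16 (SE 0.035, adjusted p = 3.83e-18), and at 2.01 (SE 0.035, adjusted p = 3.54e-22), and *Adam12* was lower in both, at -3.60 (SE 0.31), and at -3.75 (SE 0.34). The means of *Adam12* were 0.202 and 0.179 CPM against 2.53 CPM in NL. Of the 4 that rose in Ly6Glow cells over NL, *Adam9* turned sign on FPKM (0.65 and -0.04), and limma on FPKM called 1 of the 10 higher and 3 lower there. In Ly6Glow over Ly6Ghigh cells of macrometastatic lung 2 were called higher, *Adam28* at 0.93 (SE 0.36, adjusted p = 0.0355), and *Adam19* at 0.85 (SE 0.034, adjusted p = 3.98e-15). On log2(FPKM + 1), which understates changes of low genes, these were 0.10 and 0.60, and DESeq2 and limma on FPKM called 1 each. None was called lower there by edgeR, DESeq2 or limma on FPKM, and 2 were lower at an unadjusted p under 0.05.

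Of 15 ADAMTS genes, secreted relatives that cut proteoglycans and procollagen, 14 were lower in each macrometastatic group than in NL cells, and 8 in each by limma on FPKM. The largest falls were *Adamts8* in Ly6Ghigh cells at -3.43 (SE 0.19, adjusted p = 3e-13), and *Adamts3* in Ly6Glow cells at -3.26 (SE 0.55, adjusted p = 1.03e-05). Means were 0.833 and 9.06 CPM for the first and 0.104 and 1.06 CPM for the second, which was at -0.21 on log2(FPKM + 1). None was higher against NL by edgeR, DESeq2 or limma on FPKM, or at an unadjusted p under 0.05 in edgeR. In Ly6Glow over Ly6Ghigh cells none was called by these tools, and at an unadjusted p under 0.05 in edgeR 3 were lower and 0 higher.

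Of 3 other inhibitor genes tested, *Timp3*, whose product binds to the matrix, was lower than in NL in both macrometastatic groups, at -3.75 (SE 0.046, adjusted p = 2.48e-24) in Ly6Ghigh and at -3.62 (SE 0.047, adjusted p = 3.69e-24) in Ly6Glow cells. *Reck*, which encodes a membrane-anchored MMP inhibitor, was higher in macrometastatic Ly6Ghigh than in NL cells at 1.33 (SE 0.063, adjusted p = 1.03e-14). It was lower in Ly6Glow than in Ly6Ghigh cells at -0.78 (SE 0.065, adjusted p = 1.02e-09), where *Timp2* was higher. The third was *Spock2*, named after its values were seen, which was lower against NL in both macrometastatic groups, at -3.31 (SE 0.089), and at -3.32 (SE 0.096).

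**Figure D4:**
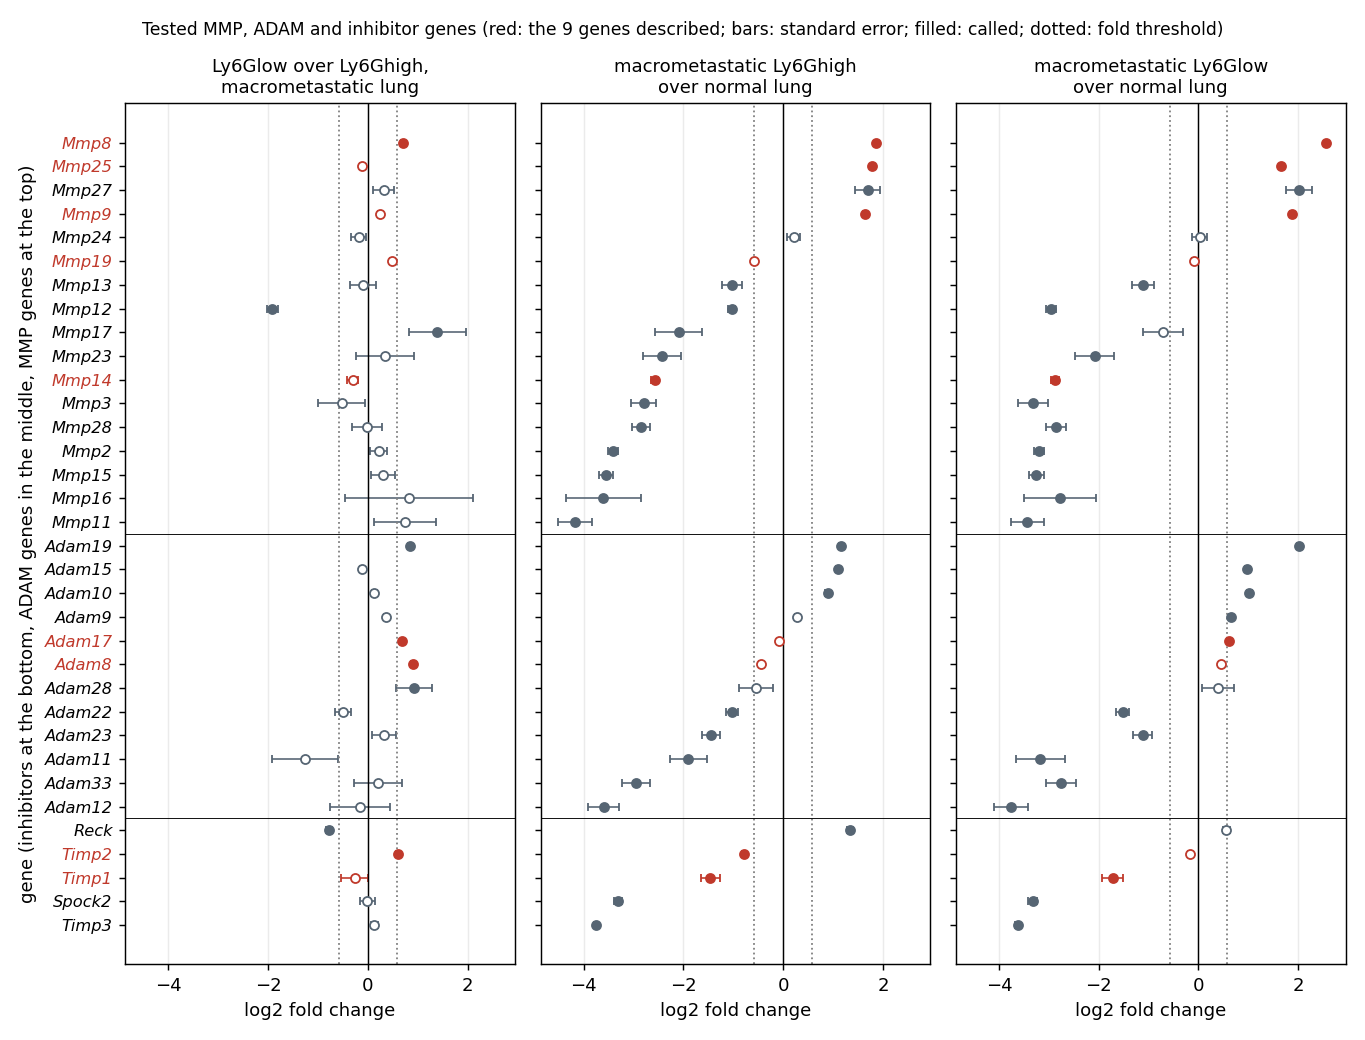
Log2 fold changes with standard errors of the 9 genes (red) and of 25 other tested MMP, ADAM and inhibitor genes (dark grey) in the 3 comparisons (panels), grouped by family and ordered within a family by the middle panel. Filled points were called. In the middle panel *Mmp8*, *Mmp25*, *Mmp27* and *Mmp9* lie on the right, between 1.63 and 1.86, and most other MMP genes on the left; on FPKM the sign turns for *Mmp9* in the left panel and for *Adam8*, *Adam17* and the called *Adam9* in the right panel. Among uncalled other genes it turns for *Mmp2*, *Mmp16*, *Adam10*, *Adam23*, *Adam33* and *Timp3* in the left, *Mmp24* and *Adam9* in the middle and *Mmp24*, *Adam28* and *Reck* in the right panel.

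Transcripts for proteins that activate MMPs or hold them at the cell surface changed in both directions, as tested genes at large did. Of 17 genes tested, 7 were higher and 6 lower in macrometastatic Ly6Ghigh than in NL cells, 6 higher and 5 lower in Ly6Glow than in NL cells, and 3 higher and 7 lower in Ly6Glow than in Ly6Ghigh cells. Of all tested genes, 26.3%, 28.7% and 9.29% were called higher and 36.6%, 40.8% and 15.9% lower in these comparisons. The proteinase 3 gene *Prtn3* was higher than in NL at 5.60 (SE 0.12, adjusted p = 1.29e-20) in Ly6Ghigh and at 3.35 (SE 0.17, adjusted p = 5.25e-14) in Ly6Glow cells. *Pcsk6*, a proprotein convertase gene, was lower than in NL at -3.72 (SE 0.38, adjusted p = 8.85e-09), and at -4.72 (SE 0.48, adjusted p = 7.68e-09). Its means were 0.161 and 0.0792 CPM against 2.23 CPM in NL, and on log2(FPKM + 1) it was at -0.71 and -0.74. Ly6Glow cells had less of the neutrophil elastase gene *Elane* than Ly6Ghigh cells at -2.83 (SE 0.19, adjusted p = 3.24e-11) with means of 1.28 and 9.06 CPM. They had more of *Cd44*, whose product docks Mmp9, at 0.68 (SE 0.028, adjusted p = 6.95e-15), a call not made on FPKM, where the difference was 0.45 and limma called 0 of the list higher and 9 lower. *Bsg*, which encodes the MMP inducer basigin, was called higher in Ly6Glow than in NL cells (0.77) and turned sign on FPKM (-0.01). On FPKM limma called 3 and 1 of the 17 higher against NL in place of 7 and 6.

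Adam17 acts after it has matured and reached the cell surface. Of 5 genes tested for proteins of this route, *Rhbdf2*, which encodes the iRhom that carries Adam17 to the cell surface in leukocytes, was higher in Ly6Glow than in Ly6Ghigh cells at 0.77 (SE 0.044, adjusted p = 1.58e-12), and its relative *Rhbdf1* was lower at -0.68 (SE 0.27, adjusted p = 0.0352). On FPKM *Rhbdf2* was at 0.53 and *Rhbdf1* at -0.30, and limma called neither, while DESeq2 called 1 higher and 0 lower. Against NL 2 were higher and 2 lower in macrometastatic Ly6Ghigh cells and 3 higher and 2 lower in Ly6Glow cells, where limma on FPKM called 0 higher and DESeq2 called 1 lower. *Frmd8*, the gene of an iRhom-binding protein, was higher at 1.50 (SE 0.060), and at 1.14 (SE 0.063) in this order, and *Rhbdf1* lower at -2.87 (SE 0.15), and at -3.55 (SE 0.17).

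Of 16 genes for known Adam17 substrates, 5 were higher and 1 lower in Ly6Glow than in Ly6Ghigh cells. The largest rise was *Areg*, the gene of a ligand of the epidermal growth factor receptor, at 1.54 (SE 0.15, adjusted p = 1.57e-08), and the fall was *Mertk*, a macrophage receptor gene, at -1.44 (SE 0.14, adjusted p = 8.03e-09). Against NL 4 were higher and 5 lower in macrometastatic Ly6Ghigh cells (26.3% and 36.6% of all tested genes). They ran from the integrin gene *Itgam* at 1.60 (SE 0.027) to the growth factor gene *Tgfa* at -3.19 (SE 0.28), with means of 0.284 and 2.65 CPM for *Tgfa*. In Ly6Glow over NL cells 7 were higher and 5 lower (28.7% and 40.8% of all tested genes), from the Fc receptor gene *Fcgr3* at 1.94 (SE 0.033) to *Mertk* at -4.43 (SE 0.090). *Mertk* is also a gene of macrophages, whose summed markers moved in the same directions, and their part was not tested.

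The genes of specific and gelatinase granules, the compartments that hold Mmp8 and Mmp9 protein, were mostly higher in macrometastatic than in NL neutrophils. Of 16 tested, 12 were higher and 2 lower in macrometastatic Ly6Ghigh than in NL cells, with a median log2 fold change of 1.69. On FPKM limma called 9 higher in this comparison and 6 in Ly6Glow over NL cells. The largest rise was *Fcnb*, a ficolin gene, at 4.04 (SE 0.099, adjusted p = 1.07e-19), and the largest fall *Ptx3*, a pentraxin gene, at -1.62 (SE 0.29, adjusted p = 2.86e-05), with means of 0.628 and 1.94 CPM for *Ptx3*. In Ly6Glow over NL cells 10 were higher and 4 lower (2 lower by DESeq2 and 5 by limma on FPKM) with *Cd177*, a neutrophil surface protein gene, at 2.64 (SE 0.038, adjusted p = 1.27e-23), and *Ptx3* at -2.88 (SE 0.39, adjusted p = 4.90e-07). In Ly6Glow over Ly6Ghigh cells 2 were higher, led by the metal transporter gene *Slc11a1* at 1.00 (SE 0.039, adjusted p = 3.30e-15), and 7 were lower, led by *Fcnb* at -3.33 (SE 0.10, adjusted p = 7.55e-17). The median there was -0.45, beside 0.70 for *Mmp8* and 0.23 for *Mmp9* on the same scale. In all, 32 of 92 tested genes of the 8 lists were called between the macrometastatic groups (14 higher), 74 in Ly6Ghigh over NL (28 higher) and 75 in Ly6Glow over NL cells (29 higher). Of all 14108 tested genes, 3560, 8874 and 9809 were called in the same order (1310, 3712 and 4049 higher).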

How the data were processed

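Bulk RNA-seq of sorted mouse lung neutrophils was analysed in 9 libraries, grouped by the titles and treatment fields of the labels. The authors deposited estimated counts per gene, not normalized and rounded here for the tests (37.9% were whole), and FPKM values, normalized by the authors for transcript length and fragment number. Per the labels, libraries were poly(A)-selected and strand-specific and the build was mm10. The aligner, counter and strand setting were not given in the sources used here. Of 22064 genes, 3739 were blank.

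Counts were tested in R 4.3.3 with edgeR 4.0.16 (filterByExpr by group, TMM, quasi-likelihood test, 1 model over all 9 libraries, 14108 genes, Benjamini-Hochberg adjustment over all of them). Calls required an adjusted p no higher than 0.05 with a log2 fold change beyond 0.58 in either direction, the fold threshold of the study, which used DESeq2. The SE is the log2 fold change divided by the square root of F. The scripts were tested on simulated data. Alternatives were DESeq2 1.42.0, limma 3.58.1 on log2(FPKM + 1 or 0.1), other scalings and filters, a replicate block, other thresholds and leaving out each library. CPM used a prior count of 2 on the log2 scale. With 15267177 to 17841807 counts a library, what edgeR names the biological coefficient of variation was 0.0346. It measures the spread between these libraries, and since the mice in each are not stated it gives no variation between mice. Low counts, as for *Timp1*, limit precision.

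The 9 genes, the 8 pathway lists and the marker lists were chosen with earlier results of these data known. The genes named are the 9 members, the 2 genes nearest each in pattern (those of *Timp1* are not reported here), for each list and comparison the called gene with the largest rise and fall (mean of 1 CPM or more in the group with more), and *Csf3r*, *S100a8*, *S100a9*, *Ly6g*, *Adgre1*, *C1qa* and *Mrc1*. Others were named to identify a small count, to show what a marker sum rests on, for an overlap with a member, or for a sign that turned with the scale. They were named after their values were seen. Gene positions and promoters were taken from RefSeq (GRCm38.p6) by NCBI Gene identifier. Promoters matched 7 of the 9 genes.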

Additional observations from a re-analysis of the deposited data

How the results depend on the processing

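FPKM carries no TMM factor, and on the tested genes the median log2 difference moved from -0.04 to -0.13 for Ly6Glow over Ly6Ghigh, from -0.09 to -0.32 for macrometastatic Ly6Ghigh over NL and from -0.16 to -0.49 for Ly6Glow over NL cells. With limma on log2(FPKM + 1) 317 of 2243 calls were higher in Ly6Glow than in Ly6Ghigh cells, against 1310 of 3560 with edgeR, and 1436 of 6598 against 3712 of 8874, and 1128 of 7601 against 4049 of 9809, in the comparisons with NL. Under the 3 FPKM settings 1 member (*Adam8*) was called between the macrometastatic groups in place of 4. The sign turned in all 3 for *Mmp9* between these groups (-0.0013 with either pseudocount), and, in Ly6Glow over NL cells, for *Adam8* (-0.253) and *Adam17* (-0.082 with a pseudocount of 1 and -0.083 with 0.1). Set against the median of all tested genes, these were 0.28 (TMM) and 0.13 (FPKM) for *Mmp9*, 0.61 and 0.24 for *Adam8* and 0.77 and 0.41 for *Adam17*. On the same 2 scales *Mmp19* was 0.06 and -0.30 in Ly6Glow over NL cells, and *Adam17* was 0.01 and -0.21 in macrometastatic Ly6Ghigh over NL cells. The FPKM median was taken on log2(FPKM + 1), which understates changes of low genes. In Ly6Glow over NL cells it moved less than *Mmp19*, whose values differed by 0.69 between the scales. Smaller values and turned signs relative to this median therefore do not show a dependence on library scaling. Between the macrometastatic groups 8 members passed with no fold threshold and 0 at a log2 threshold of 1, where edgeR gave 6 higher and 2 lower at an unadjusted p under 0.05 and DESeq2 called 4 at a threshold of 0.58. With upper-quartile scaling or at least 10 counts in every library 8 members were called in macrometastatic Ly6Ghigh over NL cells in place of 6, adding *Mmp19* and *Adam8*, and 5 in place of 6 in Ly6Glow over NL cells, without *Adam17*. Of the pathway genes 49 in place of 74 were called in macrometastatic Ly6Ghigh over NL cells with at least 10 counts in every library, and 47 in place of 75 in Ly6Glow over NL cells with an FPKM of at least 1 in 3 libraries, both of which test fewer genes. Leaving out each library gave 4, 6 or 7, and 6 members called in the 3 comparisons, the 7 without NL replicate 1. No pairing of libraries by replicate number was detected (correlations of same-numbered deviations -0.068 to 0.077, 9 pairs). The labels do not say whether equal numbers pair libraries. Libraries of a group differed so little that these correlations cannot exclude a pairing. With a replicate block 4, 6 and 6 members were called. Of 513 member values under alternatives 476 kept direction and call, 17 gained a call, 11 lost it and 9 turned sign.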
